A study of Homo sapiens with 11 samples.

Results

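The 5 genes LIPG, ADGRG1, CTDSPL, PLEKHA7 and BAHCC1 were described as the genes holding the strongest peaks that disappeared from 92-1 cells within 4 h of FHT-1015, out of 20037 protein-coding genes in the RefSeq annotation. They were chosen by measured values: a DMSO peak without any overlap (1 bp or more) by a peak that the same antibody gave in FHT-1015 was called lost, and such peaks were ranked by the authors' −log10 p. That quantity is the caller's significance for the summit over background. LIPG was chosen by the strongest lost SOX10 peak, CTDSPL and ADGRG1 by the top 2 lost TFAP2A peaks, PLEKHA7 by the strongest lost MITF peak and BAHCC1 by the strongest lost H3K27ac peak. Each locus was the gene body with 50 kb either side. In hg38 the RefSeq gene bodies are LIPG at chr18:49561479-49599185, ADGRG1 at chr16:57619738-57665567, CTDSPL at chr3:37861880-37984469, PLEKHA7 at chr11:16777297-17014414 and BAHCC1 at chr17:81395457-81466331. The values of the choosing antibody at these peaks are given as a description. What the choice did not use are the other antibodies at the same place and all antibodies at the other elements of each locus.

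92-1 is an established line from a uveal melanoma, a tumour of the pigment cells of the eye. Cells received DMSO, the solvent, or FHT-1015, which inhibits both SMARCA4 and SMARCA2, for 4 h. Their chromatin, fixed with formaldehyde and sheared by sonication, was immunoprecipitated for SOX10, MITF, TFAP2A, SMARCA4 and acetylated lysine 27 of histone H3 (H3K27ac). The titles call the TFAP2A target AP-2, and the protocol names TFAP2A. Each antibody had 1 library per condition, so nothing below has a replicate check and no test was made. An input library from DMSO-treated cells was also made, with no peak list used here.

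SOX10 and MITF are transcription factors that specify and maintain pigment cells, and TFAP2A is a neural crest factor that shares many of their enhancers. BAF complexes, which use either SMARCA4 or SMARCA2 as their ATPase motor, slide and evict nucleosomes so that factors can reach enhancer DNA. H3K27ac marks active enhancers and promoters. LIPG encodes endothelial lipase, a secreted phospholipase that acts on high-density lipoprotein. ADGRG1, also called GPR56, is an adhesion G protein-coupled receptor. CTDSPL is a small phosphatase of the family that acts on the C-terminal domain of RNA polymerase II, PLEKHA7 is a protein of the zonula adherens, and BAHCC1 is a chromatin protein with a BAH domain.

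The cell label was checked at marker genes in DMSO. H3K27ac, SOX10 and MITF peaks lay in the bodies of 7 of 7 pigment cell genes (MITF, SOX10, PMEL, MLANA, TYR, TYRP1 and DCT). Of 8 genes of other cell types, 2 had an H3K27ac peak, 4 a SOX10 peak and 3 a MITF peak, and CDH1, the epithelial cadherin gene, had strong peaks of all 3 (H3K27ac −log10 p 159). Reads at each summit were recovered from the deposited fold and p. Dividing by the lowest background of the library gave the summit coverage in multiples of the library mean, the unit used below. From that background and the shortest peak, the FHT-1015 library was 1.15 times as deep as the DMSO library for SOX10, and 0.854, 0.960, 0.918 and 1.05 times as deep for MITF, TFAP2A, SMARCA4 and H3K27ac. The weakest peak called in any list held 4 to 7 reads, or 2.83 to 3.59 times the mean, so an absent peak means coverage below the caller's threshold and not zero binding. Intervals are 95% and cover counting error only.

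All 5 lost elements carried SOX10, MITF, TFAP2A and SMARCA4 together in DMSO, and in FHT-1015 none of them had a SOX10 peak. The choice itself fixed the absence of SOX10 at LIPG, TFAP2A at ADGRG1 and CTDSPL, MITF at PLEKHA7 and H3K27ac at BAHCC1. Leaving those out, and counting elements with the antibody's peak in DMSO, FHT-1015 peaks were present for SOX10 at 0 of 4, MITF at 2 of 4, TFAP2A at 2 of 3, SMARCA4 at 3 of 5 and H3K27ac at 2 of 3. Genome-wide, overlapping peaks merged into 29480 elements that carried SOX10, MITF, TFAP2A and SMARCA4 in DMSO. Of these, 71.9% lacked at least 1 of the 4 in FHT-1015, and 35.3% had SOX10, 56.5% MITF, 69.1% TFAP2A and 76.3% SMARCA4. With the choosing antibody included, antibodies with a peak went from 4 to 2 at LIPG, 5 to 1 at ADGRG1, 5 to 3 at CTDSPL, 5 to 1 at PLEKHA7 and 5 to 2 at BAHCC1. Each element lay inside its gene, at least 4.02 kb from the lower-coordinate boundary. Exons and introns were not analysed here.

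**Figure D1:**
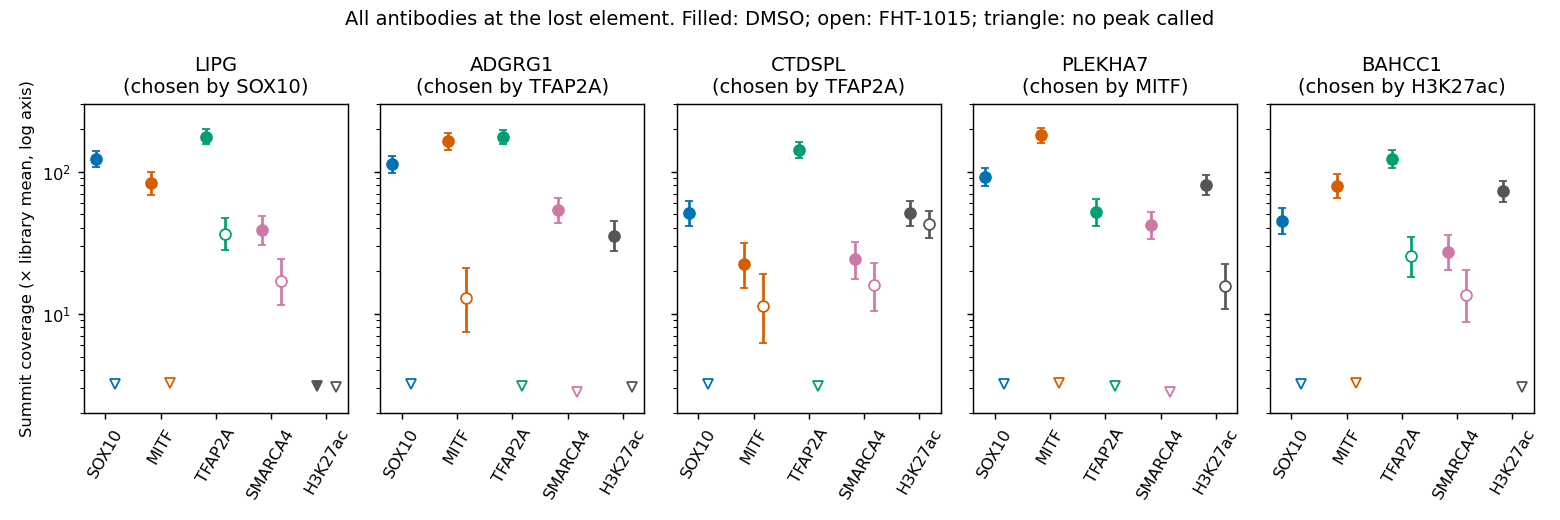
Summit coverage (multiples of the library mean, log axis) of each antibody at the lost element of each gene, DMSO filled and FHT-1015 open, 1 library each. Bars are 95% Poisson intervals, and triangles stand for no called peak, drawn at the weakest coverage called in that library. The limit at the element itself can be higher, so triangles do not measure the depth of a loss. SOX10 has no FHT-1015 peak in any panel, while H3K27ac at CTDSPL is nearly level (51.1 and 42.7).

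In LIPG the lost element was the SOX10 peak at chr18:49585589-49586508 (hg38), 24.6 kb inside the lower-coordinate boundary of the gene. SOX10 coverage there was 123 times the library mean in DMSO (237 reads; −log10 p 283), and no FHT-1015 peak was called. The nearest SOX10 peak in FHT-1015 was 92989 bp away, outside the locus. TFAP2A, which the choice did not use, was higher still in DMSO at 176 times the mean, with its summit 2 bp from that of SOX10, and it stayed at 36.6 in FHT-1015. The ratio was 0.21 (0.15 to 0.28). MITF was at 83.2 in DMSO and had no peak in FHT-1015. SMARCA4 went from 38.8 to 17, a ratio of 0.44 (0.28 to 0.68), so SMARCA4 and TFAP2A were both still called where SOX10 and MITF were not. H3K27ac had no peak over this element in either condition, which sets it apart from the other 4 elements.

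The ADGRG1 element, the TFAP2A peak at chr16:57623442-57624115, kept a peak for MITF alone. TFAP2A coverage was 176 in DMSO (284 reads; −log10 p 298), and the nearest TFAP2A peak in FHT-1015 was 3051 bp away. MITF was at 163 in DMSO and 13 in FHT-1015, a weak peak (16 reads; −log10 p 3.38). Its ratio of 0.08 (0.04 to 0.13) was the lowest of the retained peaks at the 5 lost elements. SOX10 was at 112 in DMSO, SMARCA4 at 53.5 and H3K27ac at 35.4, and none of the 3 had a peak in FHT-1015. The SMARCA4 peak here (−log10 p 64.2) was itself the third strongest lost peak of its list.

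The CTDSPL element, the TFAP2A peak at chr3:37909171-37909735, kept an H3K27ac peak, though a narrower one. TFAP2A was at 143 in DMSO (231 reads; −log10 p 305) and SOX10 at 50.8, and both were without a peak in FHT-1015. H3K27ac was at 51.1 in DMSO and 42.7 in FHT-1015, a ratio of 0.84 whose interval of 0.62 to 1.13 includes 1. SMARCA4 went from 24.1 to 15.8 (ratio 0.66, 0.40 to 1.07), also not separated from 1 by counting error. The H3K27ac peak ran from 37908676 to 37910483 in DMSO and from 37909184 to 37910072 in FHT-1015. Its summit lay 354 and then 17 bp from the lost TFAP2A summit, so its ratio compares different positions. MITF was weak in both conditions, at 22.2 and 11.3, and lower in FHT-1015 beyond counting error (ratio 0.51, 0.25 to 0.99). This was the element with the most antibodies still called, 3 of 5.

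The PLEKHA7 element, the MITF peak at chr11:16812084-16812759, lost all 4 chromatin-binding proteins. MITF was at 179 in DMSO (250 reads; −log10 p 299), SOX10 at 91.7, TFAP2A at 51.9 and SMARCA4 at 42.0, and none was called in FHT-1015. The nearest MITF peak in FHT-1015 was 73347 bp away and the nearest SMARCA4 peak 2397 bp away. H3K27ac went from 80.2 to 15.8, a ratio of 0.20 (0.13 to 0.29). The acetylated region narrowed as well, from 16810744 to 16814736 in DMSO to 16812198 to 16812860 in FHT-1015.

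The BAHCC1 element, the H3K27ac peak at chr17:81455121-81457867, was the widest of the 5 at 2747 bp. H3K27ac was at 73 in DMSO (140 reads; −log10 p 146), with no narrow or broad peak over it in FHT-1015. SOX10 and MITF, at 45.1 and 79.7 in DMSO, were also without a peak. TFAP2A had 2 FHT-1015 peaks over the element. At its DMSO summit it went from 123 to 25.4 (ratio 0.21, 0.14 to 0.29), while another FHT-1015 peak, at 61.4, had its summit at −1413 bp from the H3K27ac summit. In DMSO a single TFAP2A peak spanned both places, so the value at the other place in DMSO is not known. SMARCA4 went from 27.3 to 13.6 (ratio 0.50, 0.29 to 0.82) and was split into 3 peaks in FHT-1015.

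The peaks just outside the choice were weaker by different margins. The next lost SOX10 peak had a −log10 p of 256 against 283 at LIPG, and the next MITF peak 232 against 299 at PLEKHA7. The next TFAP2A peak had 287 against 305 and 298, and the next H3K27ac peak 142 against 146. Ranks within the DMSO lists differed. The LIPG peak ranked 17 of 103379 SOX10 peaks and the PLEKHA7 peak 107 of 89519 MITF peaks. The CTDSPL and ADGRG1 peaks ranked 185 and 226 of 142667 TFAP2A peaks, and the BAHCC1 peak 3299 of 68093 H3K27ac peaks.

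The companions of these peaks were set beside those of all strong peaks (−log10 p of 100 or more). Of 193 lost MITF peaks in that class, 100% overlapped a SOX10 peak in DMSO and 0 did in FHT-1015, and SMARCA4 peaks overlapped 99.5% and 56.5%. Of 3358 retained MITF peaks, SOX10 overlapped 99.9% in DMSO and 52.7% in FHT-1015. Of 512 lost TFAP2A peaks, SOX10 overlapped 99.6% and then 1.17%, and H3K27ac 67.2% and then 24.6%. Of 7381 retained TFAP2A peaks, SOX10 overlapped 98.8% and then 44.4%, and H3K27ac 82.8% and then 74.0%. Of 555 lost SOX10 peaks, the class of the LIPG element, MITF overlapped 95% and then 34.2%, TFAP2A 98.9% and then 50.8%, SMARCA4 99.5% and then 71.2%, and H3K27ac 80.9% and then 54.8%. The H3K27ac list, to which the BAHCC1 element belongs, had 11 lost peaks of that class, and SOX10 overlapped 10 of them in DMSO and 1 in FHT-1015. The absence of SOX10 at the MITF and TFAP2A elements in PLEKHA7, ADGRG1 and CTDSPL was thus shared with nearly all strong lost peaks of those lists.

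The loci differed in how many peaks they kept. The number of peaks, all antibodies summed, went from 44 to 13 at LIPG with FHT-1015, from 75 to 33 at ADGRG1, from 113 to 51 at PLEKHA7, from 116 to 75 at CTDSPL and from 224 to 181 at BAHCC1. The FHT-1015 number was lowest against DMSO at LIPG and highest at BAHCC1. Peak numbers also changed over the whole lists. There FHT-1015 over DMSO was 0.32 for SOX10, 1.04 for MITF, 0.83 for TFAP2A, 0.88 for SMARCA4 and 0.71 for H3K27ac. Over the 5 loci the same ratio was 0.35 for SOX10, 0.59 for MITF, 0.70 for TFAP2A, 0.89 for SMARCA4 and 0.45 for H3K27ac. BAHCC1 also held 45 of the 109 SOX10 peaks and 64 of the 169 TFAP2A peaks, so sums over the 5 loci are also given without it, a choice made after its values were seen.

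SOX10 lost 76 of 109 DMSO peaks over the 5 loci (69.7%), against 81.7% in the whole list. MITF lost 49 of 82 (59.8%, whole list 63.8%), TFAP2A 65 of 169 (38.5%, whole list 45.1%) and SMARCA4 57 of 123 (46.3%, whole list 48.0%). H3K27ac lost 53 of 89 (59.6%, whole list 40.7%). Summed, with the peaks that chose the genes included, the loci were thus at or below the whole list except for H3K27ac. Without BAHCC1 the shares were 89.1% for SOX10, 71.7% for MITF, 55.2% for TFAP2A, 55.6% for SMARCA4 and 61.5% for H3K27ac, each above its whole list.

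At a −log10 p of 10 or more in DMSO, SOX10 lost 31 of 50 (62.0%, whole list 67.0%). MITF lost 11 of 34 (32.4%, whole list 38.3%) and TFAP2A 27 of 99 (27.3%, whole list 28.5%). SMARCA4 lost 6 of 37 (16.2%, whole list 14.8%) and H3K27ac 9 of 40 (22.5%, whole list 12.4%). These shares include the peaks that chose the genes. Over the 5 loci H3K27ac and SMARCA4 were above their lists, on 9 and 6 lost peaks. Without BAHCC1 all 5 were, at 85.7% for SOX10 (24 of 28), 43.5% for MITF (10 of 23), 43.1% for TFAP2A (25 of 58), 22.7% for SMARCA4 (5 of 22) and 25% for H3K27ac (6 of 24).

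**Figure D2:**
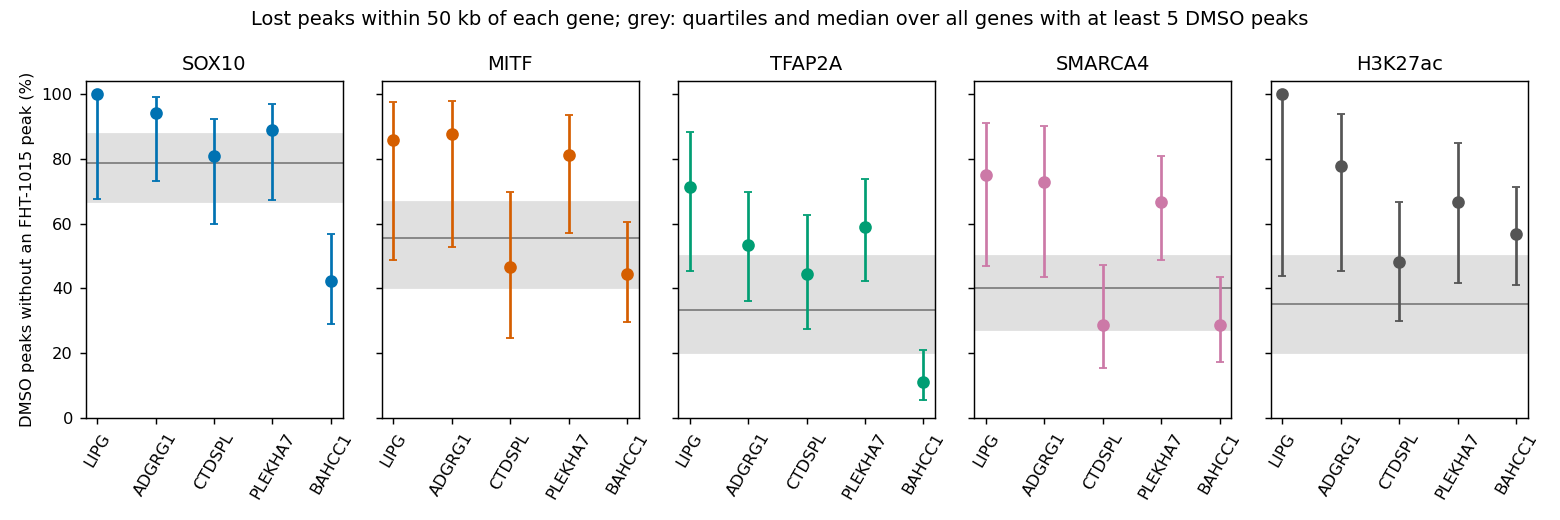
Share of DMSO peaks without an FHT-1015 peak (%) in each locus, 1 panel per antibody, with 95% Wilson intervals over peaks. The grey line and band are the median and quartiles over all protein-coding genes with at least 5 DMSO peaks of that antibody in the same window. BAHCC1 lies below the band for SOX10 (42.2%) and TFAP2A (10.9%) and above it for H3K27ac (56.8%), and ADGRG1 and PLEKHA7 lie above it for all 5 antibodies. LIPG lies above it for SOX10, MITF, TFAP2A and SMARCA4. Its H3K27ac point rests on 3 DMSO peaks, fewer than the 5 that the band required. The peaks that chose the genes are included.

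The windows of single genes gave a finer background. Over protein-coding genes with at least 5 DMSO peaks, the median share lost was 78.6% for SOX10, 55.6% for MITF, 33.3% for TFAP2A, 40.0% for SMARCA4 and 35.3% for H3K27ac. LIPG lost 8 of 8 SOX10 peaks, 6 of 7 MITF, 10 of 14 TFAP2A and 9 of 12 SMARCA4 peaks. Shares as high were found at 12.7%, 6.38%, 4.70% and 4.63% of genes. In FHT-1015 LIPG had 5 MITF peaks, 4 of them without a DMSO peak. ADGRG1 lost 7 of 9 H3K27ac peaks, a share reached by 2.61% of 10820 genes, and 8 of 11 SMARCA4 peaks (4.97% of genes). PLEKHA7 lost 20 of 30 SMARCA4 peaks (66.7%), reached by 9.75% of genes. SMARCA4 also had peaks in FHT-1015 without a DMSO peak, 8 of 12 at ADGRG1 and 14 of 23 at PLEKHA7. Of these, 1 at ADGRG1 and none at PLEKHA7 had a −log10 p of 10 or more. Peak calls there were thus exchanged as well as lost. CTDSPL lost 7 of 15 MITF peaks (46.7%) and 8 of 28 SMARCA4 peaks (28.6%), both below the median gene. Its TFAP2A (44.4%) and H3K27ac (48.0%) shares were above the median and within the quartiles. BAHCC1 lost 19 of 45 SOX10 peaks (42.2%), a share that 96.7% of genes reached or passed. Its H3K27ac share went the other way, at 21 of 37 (56.8%), reached by 16.6% of genes. The shares at the 5 loci include the peaks that chose the genes, whose loss was fixed by the choice. Neighbouring genes also share windows, so these are descriptions.

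**Figure D3:**
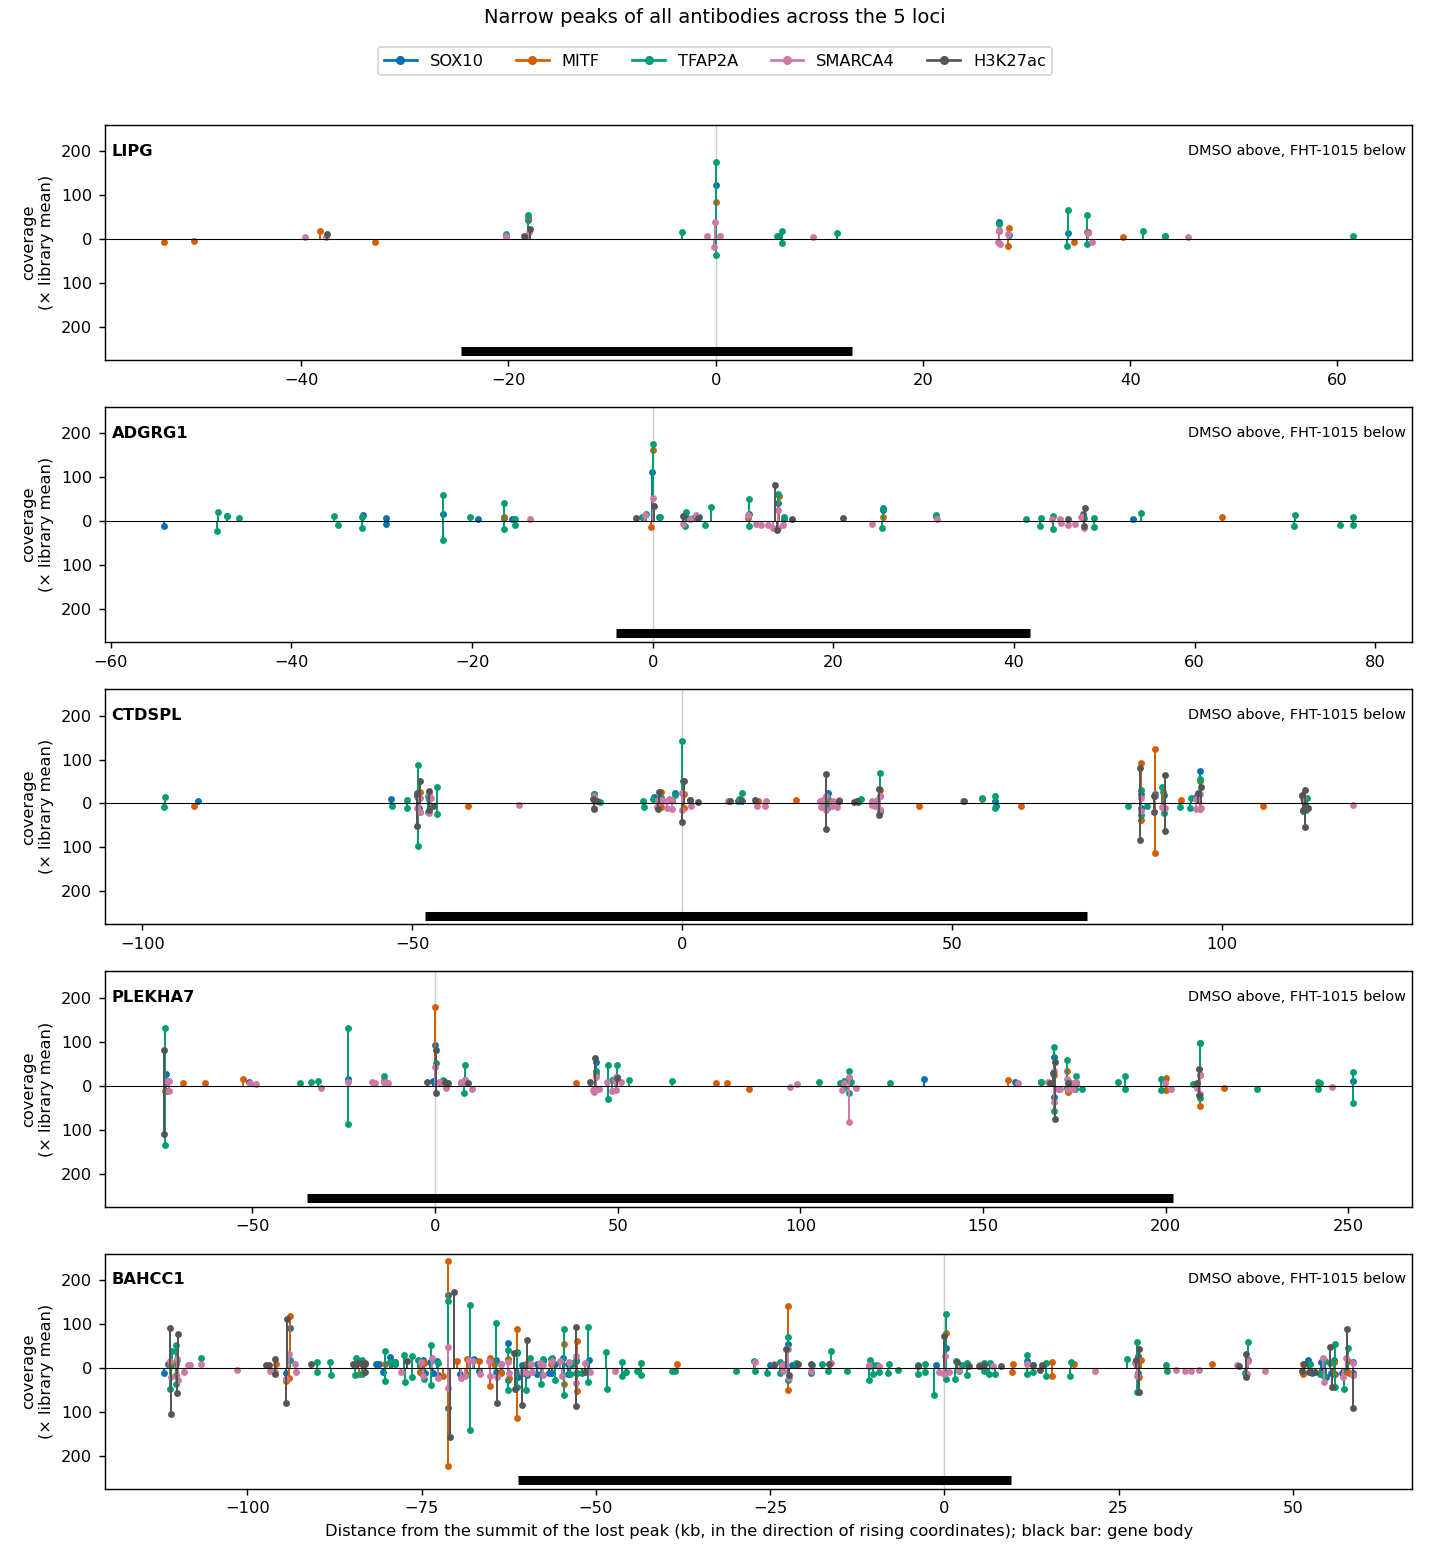
Narrow peaks along the 5 loci as stems at their summits, with summit coverage (multiples of the library mean) upward for DMSO and downward for FHT-1015, coloured by antibody. The x axis is the distance in kb from the summit of the lost peak, and the black bar is the gene body. The tall stems at 0 have little below them, while BAHCC1 keeps its tallest stems near −70 kb and PLEKHA7 shows at 113 kb a SMARCA4 stem of 18.9 in DMSO and 82.5 in FHT-1015.

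Distances below are from the summit of the lost peak, negative toward lower coordinates. LIPG had another element inside the gene, at chr18:49567488-49568431 (−18.1 kb), where all 5 antibodies were lost. There SOX10 was at 43.0, MITF at 47.4, TFAP2A at 54.4, SMARCA4 at 15.7 and H3K27ac at 21.9 in DMSO. None had a peak there in FHT-1015. Beyond the gene, 2 TFAP2A peaks that were strong in DMSO were kept at low level: 66.1 went to 14.9 (ratio 0.23, 0.14 to 0.35) and 55.6 to 10.5 (0.19, 0.11 to 0.32). Also beyond the gene, at 27.3 kb, SOX10 (38.9), MITF (19.4) and TFAP2A (33.4) had peaks in DMSO alone. SMARCA4 there was at 19.9 and 11.3 (0.57, 0.31 to 1.00). No other protein-coding gene overlaps this locus. The H3K27ac list had 3 peaks in DMSO and none in FHT-1015, and the nearest acetylated peak in FHT-1015 was 93032 bp from the lost element.

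A promoter window was given by RefSeq for 3 of the 5 genes, and 3 of these windows are shown because they separate a start without peaks, a start that lost weak peaks and a start that kept strong ones. Each sequence is the 250 bases before an annotated start on the plus strand (RefSeq, GRCh38.p14), with matches to the AP-2 motif (GCC and GGC with 3 or 4 bases between them) in capitals. The E-boxes CACGTG and CATGTG and the SOX motifs ACAAAG and ACAATG were also searched on both strands, and these letters are not in the 3 stretches. The search covered the whole windows, which run past the start. There the LIPG window held 1 further AP-2 match, and of the other 2 ADGRG1 windows 1 held 2 SOX matches and 1 held an AP-2 match.
LIPG, chr18:49561807-49562056: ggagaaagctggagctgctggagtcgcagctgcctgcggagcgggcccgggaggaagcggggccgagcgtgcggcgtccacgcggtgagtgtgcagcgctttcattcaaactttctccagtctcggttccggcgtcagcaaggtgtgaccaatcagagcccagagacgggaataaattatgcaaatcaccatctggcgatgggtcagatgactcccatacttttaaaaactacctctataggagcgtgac
ADGRG1, chr16:57628380-57628629: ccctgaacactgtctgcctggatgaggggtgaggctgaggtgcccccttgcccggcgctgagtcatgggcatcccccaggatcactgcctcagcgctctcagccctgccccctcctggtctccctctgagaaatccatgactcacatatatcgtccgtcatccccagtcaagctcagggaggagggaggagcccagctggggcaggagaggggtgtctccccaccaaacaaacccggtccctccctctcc
BAHCC1, chr17:81395207-81395456: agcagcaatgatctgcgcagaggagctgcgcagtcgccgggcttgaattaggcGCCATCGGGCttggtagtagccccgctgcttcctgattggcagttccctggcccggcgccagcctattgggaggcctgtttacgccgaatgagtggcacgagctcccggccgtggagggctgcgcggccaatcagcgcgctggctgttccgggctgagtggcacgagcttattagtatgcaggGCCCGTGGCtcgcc
Of 35116 RefSeq promoter windows of 300 bases, 23.2% held the AP-2 motif with 3 bases between, 21.4% that with 4, 7.26% CACGTG, 11.1% CATGTG, 16.1% ACAAAG and 10.8% ACAATG. CTDSPL and PLEKHA7 had no window in the table.

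At the LIPG start no antibody had a peak in either condition. At the ADGRG1 start shown, which lies on the far side of the lost element from the other 2 annotated starts, TFAP2A (11.7), SMARCA4 (14.7) and H3K27ac (6.77) had weak peaks in DMSO and none in FHT-1015. The other 2 ADGRG1 starts, 3.71 and 4.02 kb before the lost summit, had no peak of any antibody. At the BAHCC1 start, MITF was at 87.5 in DMSO and 115 in FHT-1015 (ratio 1.31, 1.02 to 1.69). TFAP2A was at 34.6 and 43.4 there, H3K27ac at 64.1 and 84.5, and SOX10 went from 35.7 to 20.7 (ratio 0.58, 0.39 to 0.86). SMARCA4 had no peak over it. The start of BAHCC1 was thus kept while its element 61.2 kb inside the gene lost acetylation.

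Upstream of that start, an element at chr17:81382683-81393625 held the strongest MITF, SOX10 and H3K27ac peaks of the 5 loci by −log10 p, and most of its signal stayed. At the strongest peak of each antibody, MITF was at 243 in DMSO and 224 in FHT-1015 (ratio 0.92, 0.78 to 1.08), H3K27ac at 174 and 158 (0.91, 0.78 to 1.06) and TFAP2A at 143 and 140 (0.98, 0.81 to 1.18). SMARCA4 was at 48.2 and 45.8 (0.95, 0.70 to 1.29). SOX10 alone among these 5 was lower beyond counting error, at 167 and 92.0 (0.55, 0.46 to 0.66).

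A pair of other BAHCC1 elements kept weaker MITF peaks. At −22.4 kb, inside the gene, MITF went from 139.9 to 50.2 (0.36, 0.27 to 0.48), TFAP2A from 69.8 to 27.9 (0.40, 0.28 to 0.57), SMARCA4 from 42.0 to 23.7 (0.57, 0.38 to 0.83) and H3K27ac from 43.8 to 16.8 (0.38, 0.25 to 0.58). SOX10, at 55.4 in DMSO, had no FHT-1015 peak there. At −94.0 kb, outside the gene, SOX10 went from 91.7 to 11 (0.12, 0.08 to 0.18) and MITF from 118 to 30.8 (0.26, 0.18 to 0.37). TFAP2A (18.5) had a peak there in DMSO alone. H3K27ac there went from 112 to 80.4 (0.72, 0.58 to 0.89), while SMARCA4, at 32.0 and 24.3 (0.76, 0.50 to 1.14), did not differ beyond counting error. Over ACTG1, the gene of cytoplasmic gamma-actin at the far end of the window, H3K27ac was at 47.9 and 42.7 (0.89, 0.66 to 1.21) and TFAP2A at 54.4 and 42.8 (0.79, 0.57 to 1.09).

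ADGRG1 had another element inside the gene, at 13.9 kb. SOX10 (41.4), MITF (56.7) and TFAP2A (61.2) were all without a peak there in FHT-1015. H3K27ac, the strongest acetylated peak of the locus, went from 81.8 to 19.3 (ratio 0.24, 0.16 to 0.34), and SMARCA4 from 26.2 to 14.7 (0.56, 0.34 to 0.92). The 3 strongest TFAP2A peaks before the gene were all kept, at different levels. At −16.4 kb TFAP2A went from 41.4 to 16.8 (0.40, 0.25 to 0.64), at −23.2 kb from 59.9 to 43.4 (0.72, 0.525 to 0.996), and at −48.2 kb, inside ADGRG5, it was at 21.6 and 23 (1.06, 0.65 to 1.74).

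At CTDSPL the element just outside the lower-coordinate boundary of the gene was kept. TFAP2A was at 87.1 and 97.4 (ratio 1.12, 0.88 to 1.41) and H3K27ac, at the stronger of its DMSO peaks, at 51.1 and 51.9 (1.02, 0.76 to 1.35). The FHT-1015 summit of H3K27ac lay nearer that of its weaker DMSO peak, where the ratio was 2.165 (1.51 to 3.14). Whether H3K27ac was higher thus depends on which is taken. SOX10 (0.58, 0.32 to 1.04), MITF at its stronger DMSO peak (0.74, 0.42 to 1.29) and SMARCA4 (1.48, 0.85 to 2.62) were not separated from 1 by counting error. Other strong elements lay in the neighbouring gene VILL, which encodes a villin-like protein. At 87.5 kb MITF was at 123 and 113 (0.92, 0.73 to 1.16) and H3K27ac at 17.2 and 18.3 (1.07, 0.65 to 1.76), while SOX10 (22.3) and SMARCA4 (17.8) had peaks in DMSO alone and TFAP2A in neither. At 85.0 kb MITF went from 91.1 to 37.3 (0.41, 0.29 to 0.58) and SOX10 from 21.8 to 11 (0.51, 0.29 to 0.86). H3K27ac there was at 80.8 and 83.4 (1.03, 0.82 to 1.30), TFAP2A at 30.3 and 26.1 (0.86, 0.56 to 1.33) and SMARCA4 at 13.6 and 17 (1.24, 0.71 to 2.19). A further VILL element, at 95.9 kb, resembled the lost ones. SOX10 (74.6), TFAP2A (56.9) and H3K27ac (38.6) had no FHT-1015 peak there, MITF went from 50.2 to 12.2 (0.24, 0.13 to 0.43) and SMARCA4 from 21.5 to 9.61 (0.45, 0.24 to 0.80).

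PLEKHA7 held 2 further elements within the gene that lost several antibodies. At 44 kb SOX10 (54.9), MITF (25.8), TFAP2A (33.4) and H3K27ac (62.0) had peaks in DMSO alone, and the SMARCA4 peak, at 19.9, was overlapped by 2 weak FHT-1015 peaks of nearly equal p. These were at 8.48 (ratio 0.43, 0.22 to 0.79) and 14.1 (0.71, 0.41 to 1.21), so whether SMARCA4 was lower depends on which is taken. At 49.7 kb SOX10 (20.7), MITF (18.7), TFAP2A (48.2) and H3K27ac (16.7) were lost, and SMARCA4 was at 18.9 and 10.7 (0.57, 0.31 to 1.02). SMARCA4 thus stayed called at both, unlike at the lost element. At 209 kb, beyond the upper boundary of the gene, SOX10 (25.4) was lost, TFAP2A went from 97.0 to 27.9 (0.29, 0.20 to 0.40), MITF from 96.2 to 46.2 (0.48, 0.35 to 0.66) and H3K27ac from 38.0 to 21.9 (0.58, 0.39 to 0.85). SMARCA4 there was at 23.6 and 18.7 (0.79, 0.49 to 1.27).

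Acetylation and SOX10 parted at other places in the PLEKHA7 locus. At 169 kb SOX10 went from 66.3 to 26.2 (0.40, 0.28 to 0.54) and TFAP2A from 88.4 to 57.7 (0.65, 0.50 to 0.85), and H3K27ac, at the stronger of its DMSO peaks, from 53.7 to 74.8 (1.39, 1.08 to 1.81). MITF (25.1) had a peak there in DMSO alone, and SMARCA4 was at 34.1 and 37.9. At the border of SOX6, a SOX-family factor gene, and C11orf58, SOX10 went from 25.9 to 12.9 (0.50, 0.30 to 0.81) and H3K27ac from 82.3 to 109.9 (1.33, 1.08 to 1.65). TFAP2A there was at 132 and 134 (1.01, 0.84 to 1.23). Over the whole list the median H3K27ac ratio of retained pairs was 1.21, so ratios of this size were common.

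SMARCA4 was far higher in FHT-1015 at a place inside PLEKHA7, at 113 kb. A peak at chr11:16924109-16927198 reached 82.5 times the mean (146 reads; −log10 p 129) and ranked 26 in the FHT-1015 SMARCA4 list. In DMSO the same place had SMARCA4 at 18.9 (36 reads; −log10 p 14), so that the ratio was 4.37 (3.02 to 6.49). Of 16418 retained SMARCA4 peaks at or above a DMSO −log10 p of 10, 20 (0.122%) had a ratio as high. SOX10 (17.1) and MITF (12.2) had peaks there in DMSO alone, TFAP2A went from 34.0 to 17.4 (0.51, 0.31 to 0.82), and H3K27ac had no peak in either condition. The 3 factors were thus weaker or not called where SMARCA4 was higher, and at none of the 5 lost elements was SMARCA4 higher in FHT-1015.

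**Figure D4:**
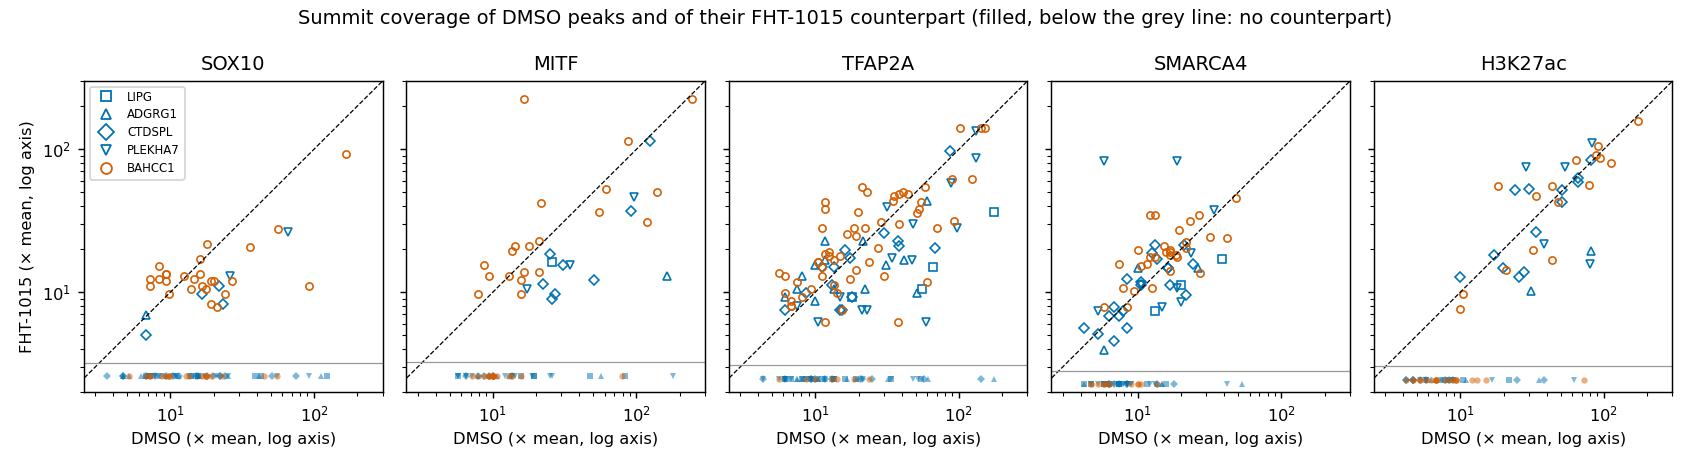
Summit coverage of each DMSO peak (x) against that of its FHT-1015 counterpart (y), both in multiples of the library mean on log axes, by antibody, with BAHCC1 in orange and the other 4 loci in blue. Points below the grey line had no counterpart, the dashed line marks equal coverage, and an FHT-1015 peak over several DMSO peaks is drawn for each. SOX10 and MITF points lie mainly below the dashed line (medians 0.51 and 0.61 where −log10 p in DMSO was 10 or more), and those of SMARCA4 scatter about it (0.93).

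Peaks that stayed were often lower. Among retained pairs at or above a DMSO −log10 p of 10, SOX10 had a median ratio of 0.51 over 19 pairs (whole list 0.52), and 13 pairs were lower beyond counting error and none higher. MITF had a median of 0.61 over 23 pairs (whole list 0.60), with 12 lower and 1 higher. TFAP2A had 0.73 over 72 pairs (whole list 0.71), with 30 lower and 4 higher. SMARCA4 was at 0.93 over 31 pairs (whole list 0.96), with 6 lower and 2 higher. H3K27ac was at 0.89 over 31 pairs against 1.21 in the whole list, with 10 lower and 6 higher. Without BAHCC1 the medians were 0.45 for SOX10 (4 pairs), 0.48 for MITF (13), 0.52 for TFAP2A (33), 0.67 for SMARCA4 (17) and 0.86 for H3K27ac (18), each below its list. These peaks were picked in DMSO, and the part of that choice in the ratios was not tested. The median TFAP2A ratio was 0.22 at LIPG (4 pairs) and 0.94 at BAHCC1 (39 pairs).

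Peaks at or above a −log10 p of 20 were counted in the same way. In DMSO the loci held 162 of them, and 42 had no FHT-1015 counterpart, 5 of which are the peaks that chose the genes. SOX10 lost 16 of 27 (59.3%, whole list 57.9%), MITF 5 of 21 (23.8%, whole list 27.5%), TFAP2A 15 of 66 (22.7%, whole list 21.4%), SMARCA4 2 of 15 (13.3%, whole list 6.60%) and H3K27ac 4 of 33 (12.1%, whole list 4.98%). The last 2 rest on 2 and 4 lost peaks. With the peaks that chose the genes left out, SOX10 lost 15 of 26, MITF 4 of 20, TFAP2A 13 of 64 and H3K27ac 3 of 32. SOX10 and TFAP2A were then below their lists. Without BAHCC1 but with those peaks, SOX10 lost 14 of 18 (77.8%), MITF 4 of 14 (28.6%) and TFAP2A 14 of 40 (35%). SMARCA4 lost 2 of 9 there (22.2%) and H3K27ac 3 of 20 (15%). With both BAHCC1 and those peaks left out, SOX10 lost 13 of 17, MITF 3 of 13 and TFAP2A 12 of 38. MITF was then below its list. By locus, 11 of the 42 lay at PLEKHA7, 10 at ADGRG1, 9 at CTDSPL, 7 at LIPG and 5 at BAHCC1. Of 76 FHT-1015 peaks of that strength at the loci, 0 lacked a DMSO counterpart, and over the 5 whole lists 0.475% did.

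Merged elements were then followed within the loci. In DMSO 38 of 274 carried SOX10, MITF, TFAP2A and SMARCA4, and in FHT-1015 27 of these (71.1%) lacked at least 1, beside the 71.9% given above for the genome. BAHCC1 held 9 of the 11 that stayed complete and CTDSPL 2. Without BAHCC1, 22 of 24 (91.7%) lacked at least 1. Of the 38, 15 kept SOX10 (39.5%), 21 MITF (55.3%), 24 TFAP2A (63.2%) and 32 SMARCA4 (84.2%), and 3 kept none. Of the 24, 4 kept SOX10 (16.7%), 9 MITF (37.5%), 11 TFAP2A (45.8%) and 18 SMARCA4 (75%). With H3K27ac included, 28 elements carried all 5 antibodies in DMSO and 8 still did, 6 of them at BAHCC1. Genome-wide, 35.2% of such elements still did. The lost elements are among the elements counted here.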

How the data were processed

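ChIP-seq of 92-1 cells was deposited as 14 peak lists without headers: 10 narrow lists, 1 per library, and 4 broad lists for H3K27ac and SMARCA4. Per the submitters' processing notes BWA, SAMtools, Picard, MACS2 and hg38 were used, and the roles, versions and control are not given in the sources used here. The authors deposited for each peak a fold (a ratio at the summit over background), −log10 p and −log10 q, and a score that equals 10 times −log10 p, truncated, in the narrow lists. The lowest −log10 p was just above 2, so weak peaks were included.

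Peaks were compared by overlap in Python 3.11.15 with pandas 2.3.3 and SciPy 1.17.1. Summit reads and background were solved from fold = (reads + 1)/(background + 1) and the Poisson tail, an inferred form. It gave whole reads (tolerance 0.01 reads) for at least 99.9978% of peaks of each list except SOX10 in FHT-1015. Simulated data made with the same form tested the solving and not the form. For SOX10 in FHT-1015 reads were set to whole numbers after division by a scale of 0.890, with a floor on the background. That scale was picked for the best match, and −log10 p was then matched to within 0.002. Ratios have exact conditional binomial intervals and shares Wilson intervals (95%). Where several FHT-1015 peaks overlapped, the strongest was the counterpart, and at the lost elements the peak with the nearest summit. Genes came from RefSeq GRCh38.p14, without strand or exons. Members, lists and alternatives were chosen with earlier results of these data known. Peaks were listed by a rule: the lost elements, the strongest DMSO and FHT-1015 peak per locus and antibody, and any with −log10 p of at least 20 without a counterpart. Not all of the listed peaks are described in the text. Other peaks at those places, and kept elements set beside them, were chosen after their values were seen.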

Additional observations from a re-analysis of the deposited data

How the results depend on the processing

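Retained shares are of DMSO peaks over the 5 loci, against 30.3% for SOX10, 40.2% for MITF, 61.5% for TFAP2A, 53.7% for SMARCA4 and 40.4% for H3K27ac as reported. Of 69 alternative values 39 stayed within the interval or, for peak numbers, median ratios and calls, within 1.5 times. Where 50% of a DMSO peak had to be covered, the shares were 16.5% for SOX10, 26.8% for MITF, 53.3% for TFAP2A, 41.5% for SMARCA4 and 29.2% for H3K27ac. With summits within 200 bp they were 20.2% for SOX10, 50.3% for TFAP2A, 32.5% for SMARCA4 and 27% for H3K27ac. With both lists limited to a −log10 p of 10 or more they were 12% for SOX10, 51.5% for TFAP2A and 67.5% for H3K27ac, and peak numbers in FHT-1015 over DMSO were 0.18 for SOX10 and 0.675 for H3K27ac, against 0.349 and 0.449. With that limit on the DMSO peak alone they were 67.6% for MITF, 72.7% for TFAP2A, 83.8% for SMARCA4 and 77.5% for H3K27ac. In the gene body alone they were 21.1% for SOX10, 27% for MITF, 52.1% for TFAP2A and 25.5% for H3K27ac. Without the BAHCC1 locus, an alternative added after seeing the data, they were 10.9% for SOX10, 28.3% for MITF, 44.8% for TFAP2A and 44.4% for SMARCA4, and the SOX10 number ratio was 0.125. There the summed lost shares of SOX10, MITF, TFAP2A and SMARCA4 went from below to above the whole lists. At a DMSO −log10 p of 10 or more the lost shares were 85.7% for SOX10 and 43.1% for TFAP2A, and 91.7% of elements with 4 antibodies lacked at least 1. The cause was not tested. All 5 lost elements stayed lost when a short gap was allowed, the nearest peak being 3051 bp away. Weak peaks in the shallower MITF FHT-1015 library limit calls of loss. No paired analysis was possible because each group had 1 library per antibody.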
